A study of Mus musculus with 2 samples.

Results

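In the LHX6 chromatin immunoprecipitation of the mouse maxillary arch, 262 of 6566 intervals overlapped a CpG island and lay inside a gene but away from its start. They were chosen from the authors' own annotation of each interval: at least 1 CpG island, more than 1000 bp from the start of every gene assigned to the interval, and inside at least 1 of those genes. No measured height entered the choice. LHX6 binding was profiled in 1 ChIP library, with 1 library of input chromatin beside it, both from wild-type CD-1 embryos at E11.5. Maxillary arches of 47 embryos were pooled, and 20 µg of chromatin went into the immunoprecipitation with a rabbit polyclonal antibody against LHX6. The pool was a whole dissected tissue, so cell types within it cannot be told apart.

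CpG islands are short stretches in which the dinucleotide CpG, depleted from most of the mammalian genome, has been retained, usually because they stay free of DNA methylation. Most mark promoters at annotated gene starts, but others lie inside genes, where some serve as alternative promoters, some as imprinting control regions and some overlap GC-rich coding exons. LHX6 is a LIM homeodomain transcription factor of the first pharyngeal arch mesenchyme and of forebrain interneurons, and factors of its class bind AT-rich cores such as TAATTA. Each interval is described by its height (the peak value of the authors' fragment density, from reads extended to 150 bp) and by its summit, the position of that height. With 1 ChIP library no difference between sets of intervals could be tested. The 95% intervals given below are exact (Clopper-Pearson for shares, binomial order statistics for medians) and cover counting error only, since the intervals of 1 library are not replicates of an experiment.

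The 200 bp around the summit are shown first for those intervals that carry the contrasts described here, from the mm9 genome (NCBIM37). Capitals mark the hexamer TGATTG, printed as CAATCA where it lies on the minus strand, its variant TGATTA, printed as TAATCA on that strand, and the core TAATTA. They also mark 2 E-boxes, namely CATCTG, printed as CAGATG on the minus strand, and the palindrome CAGCTG. Chd2, Arrdc3 and 5730488B01Rik (inside Pax5) show a TGATTG followed by G in GC-rich sequence, the form most frequent among the TGATTG sites of these islands. The Kcnq1 interval shows the same form in an island far from any transcript start of the GENCODE M1 annotation. The Tpm4 interval has the variant in sequence that is poorer in CpG, and the Zfp777 interval is a coding exon with none of them.
Chd2, chr7:80682749-80682948, plus strand: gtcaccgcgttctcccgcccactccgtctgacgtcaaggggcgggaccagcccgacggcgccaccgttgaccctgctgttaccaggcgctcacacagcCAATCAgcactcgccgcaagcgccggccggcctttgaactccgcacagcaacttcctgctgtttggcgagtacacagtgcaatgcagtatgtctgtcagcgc
Arrdc3, chr13:81024797-81024996, plus strand: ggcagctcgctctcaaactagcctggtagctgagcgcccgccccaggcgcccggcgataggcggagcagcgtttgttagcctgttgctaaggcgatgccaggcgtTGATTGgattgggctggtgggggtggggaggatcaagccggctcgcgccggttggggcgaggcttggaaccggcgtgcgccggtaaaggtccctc
5730488B01Rik, chr4:44717309-44717508, plus strand: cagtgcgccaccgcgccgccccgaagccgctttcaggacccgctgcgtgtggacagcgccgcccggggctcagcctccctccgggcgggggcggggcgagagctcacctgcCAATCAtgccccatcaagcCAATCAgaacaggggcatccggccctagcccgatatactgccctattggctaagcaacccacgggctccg
Kcnq1, chr7:150482413-150482612, plus strand: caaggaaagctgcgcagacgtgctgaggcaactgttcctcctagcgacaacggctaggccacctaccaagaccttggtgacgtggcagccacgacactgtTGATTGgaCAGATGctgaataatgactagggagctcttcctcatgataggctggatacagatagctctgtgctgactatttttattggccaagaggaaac
Tpm4, chr8:74660573-74660772, plus strand: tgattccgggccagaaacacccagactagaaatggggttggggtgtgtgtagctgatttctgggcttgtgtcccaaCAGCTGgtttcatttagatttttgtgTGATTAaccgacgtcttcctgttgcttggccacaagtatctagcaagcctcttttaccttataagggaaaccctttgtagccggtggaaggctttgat
Zfp777, chr6:47974749-47974948, plus strand: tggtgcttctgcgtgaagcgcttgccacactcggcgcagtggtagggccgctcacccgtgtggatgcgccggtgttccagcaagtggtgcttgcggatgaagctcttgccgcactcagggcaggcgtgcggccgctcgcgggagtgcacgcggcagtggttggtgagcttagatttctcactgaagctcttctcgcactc

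The Chd2 window held 19 CpG dinucleotides at 64.0% GC and the Arrdc3 window 19 at 67.0% GC, against 4 at 47.0% GC in the Tpm4 window. In the Kcnq1 window the hexamer and an E-box were separated by 2 letters. Summits of 3 further intervals with a hexamer lay in an annotated 5' UTR, and only the 26 bases around the hexamer are shown for them.
Myst4, chr14:22320096-22320121, plus strand: cattgggctgTAATCAgtgtcatgtc
Zfp503, chr14:22807150-22807175, plus strand: tgccgccttcCAATCAaatgggagcc
Mllt10, chr2:17986306-17986331, plus strand: gaggcctgctTGATTAtgtgtgccct

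The highest of the 262 intervals lay in Myst4, now Kat6b, which encodes a histone acetyltransferase (chr14:22318949-22320595). Its height of 126 fragments was the 8th highest among all 6566 LHX6 intervals. The summit was 1020 bp from the start the authors used for Kat6b and 23 bp from another GENCODE start of the same gene, in its 5' UTR. Arrdc3, which encodes an arrestin-domain protein that acts in receptor trafficking, had the next (chr13:81023575-81026060), with a height of 74. An interval in 6330405D24Rik (chr2:119698120-119699499) reached 54, outside any protein-coding transcript of GENCODE M1 and with no transcript start within 1 kb. Chd2, which encodes a chromodomain helicase, had an interval of height 50 (chr7:80682275-80683255), 3868 bp from the start used by the authors and 341 bp from the start of another of its transcripts.

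Heights from 39 to 44 were found at 7 further intervals among the 12 highest. Those of 5730488B01Rik (44, chr4:44716985-44717937), 4932422M17Rik (41, chr5:123590768-123591743), Cnot3 (41, chr7:3596079-3597167) and Zfp503 (39, chr14:22806599-22809213) lay within 1 kb of a GENCODE transcript start. Cnot3 encodes a subunit of the CCR4-NOT deadenylase, and Zfp503 a zinc finger repressor. Those of Zfp777 (43, chr6:47974395-47975330), Tpm4 (41, chr8:74659915-74661209) and Prrx1 (40, chr1:165239837-165245482) did not. Tpm4 encodes a tropomyosin of the actin cytoskeleton, and Prrx1 a homeodomain factor of craniofacial and limb mesenchyme. Of these 12, 9 held 1 of the hexamers within 100 bp of the summit.

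Most of the islands inside genes gave low intervals. Their median height was 20 (95% interval 19 to 21, n = 262; quartiles 17 and 24, range 12 to 126), against 21 at CpG island intervals at gene starts (n = 2178), 21 at those outside genes (n = 290) and 23 at intervals inside genes without an island (n = 1404). A height of at least 50 was reached by 5 of the 262 (1.91%, 95% interval 0.622 to 4.40%), against 4.66% of all LHX6 intervals. The shares were 1.38% at island starts, 3.10% at islands outside genes and 6.41% inside genes without an island. Few tall intervals were thus not particular to the islands inside genes. Their median length was 1046 bp (978 to 1104), against 1025 bp at starts, 988.5 bp outside genes and 781.5 bp inside genes without an island. A length of at least 3000 bp was found in 3 of the 262 (1.15%). They lay in the mesenchymal transcription factor genes Tbx3 (8613 bp), Prrx1 (5645 bp) and Twist1 (5465 bp). Such lengths were not particular to this set. The longest interval had 12515 bp at islands outside genes, 6067 bp at island starts and 3508 bp inside genes without an island. The share of such lengths over all LHX6 intervals was not counted. None of the 262 overlapped any of the 6 intervals of the input library. The overlap over all LHX6 intervals was not counted, and 6 input intervals are too few for this to set the 262 apart.

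**Figure D1:**
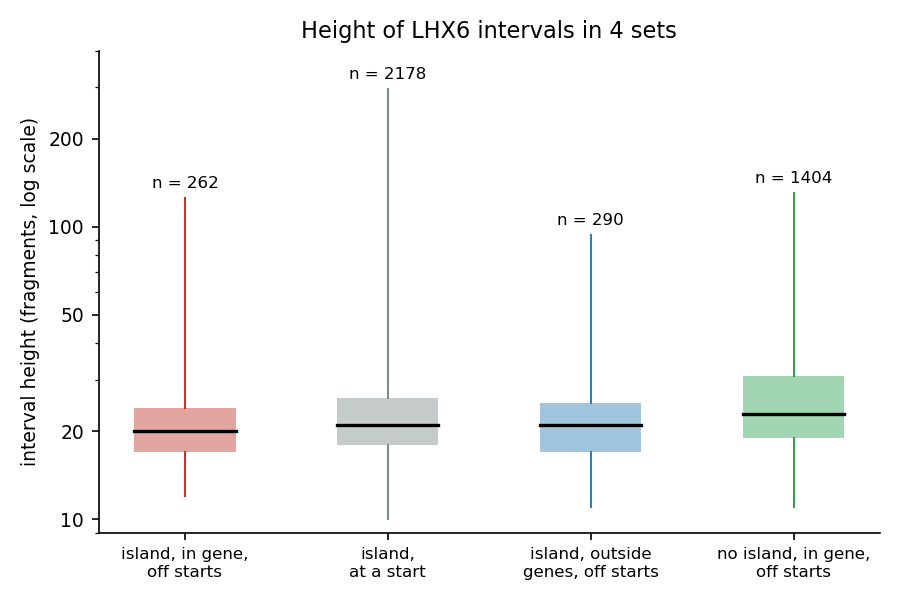
Height of LHX6 intervals (fragments, log axis) at CpG islands inside genes and off starts, at islands at gene starts, at islands outside genes, and inside genes without an island, with boxes for the quartiles, black lines for the medians and thin lines for the range. The islands inside genes have a median of 20 and reach 126, and intervals inside genes without an island have a median of 23.

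In base composition the 262 lay among the islands. Since the rule required a CpG island, the contrast with intervals without one was set by the selection. Their median GC content was 60.6%, against 60.8% at starts, 58.8% outside genes and 44.7% inside genes without an island. The observed over expected CpG ratio, which is low where CpG has decayed, had a median of 0.750 (95% interval 0.699 to 0.782), against 0.804 (0.799 to 0.811) at starts, 0.729 (0.705 to 0.759) outside genes and 0.249 inside genes without an island. Within the 262 this ratio spread widely. The Zfp771 interval, in a coding exon of a zinc finger gene, had 1.04 and that of Cacna1a, a calcium channel subunit gene, 1.19, while the Tpm4 interval had 0.344.

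Distance from the start used by the authors varied over 3 orders of magnitude without a matching change of height. The median distance was 2745.5 bp (quartiles 1495 and 10710.5 bp, range 1002 to 1475111 bp). The counts were 106 at 1 to 2 kb, 57 at 2 to 5 kb, 56 at 5 to 20 kb, 31 at 20 to 100 kb and 12 beyond 100 kb, and their median heights were 19.5, 19, 20, 21 and 19.5. The farthest lay in Magi2 (1475111 bp, height 17, chr5:20207233-20208135), which encodes a synaptic scaffold protein, Auts2 (1004069 bp, height 14, chr5:132013781-132014625), which encodes a cofactor of Polycomb complexes, and Camta1 (732767 bp, height 19, chr4:150501796-150503640), which encodes a calmodulin-binding transcription activator. Each of these 3 had a GENCODE start of its own gene close to the summit, at 191 bp in Magi2, 304 bp in Auts2 and 516 bp in Camta1. Just above the limit of 1000 bp were 4933436C20Rik (1002 bp, height 26, chr8:94879402-94880747), Shb (1005 bp, height 19, chr4:45543594-45544558) and Syncrip (1011 bp, height 17, chr9:88375878-88376579). Just below it were Hist1h2bc (988 bp, height 20, chr13:23776341-23777451), A730036E13Rik (957 bp, height 21, chr18:52927929-52928798) and EG666539 (957 bp, height 15, chr9:31087238-31088781).

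In the GENCODE M1 annotation of the same build, which lists alternative transcripts, more than 1 in 2 of these intervals did lie at a transcript start. A start of any transcript was within 1 kb of the summit in 144 of 262 (55.0%, 95% interval 48.7 to 61.1%), against 41.8% of all LHX6 intervals, 98.5% of island intervals at starts, 47.6% of those outside genes and 6.27% inside genes without an island. It was within 200 bp in 72 and within 100 bp in 47. The summit lay upstream of the nearest such start in 67 and at or downstream of it in 77. A start of a protein-coding transcript was within 1 kb in 114 (43.5%). In 14 the starts within 1 kb were only those of genes that are not protein-coding. The share with a start hardly moved with distance from the authors' start, at 51.9, 54.4, 58.9, 58.1 and 58.3% over the 5 distance groups. By name, the intervals fell into 115 at another start of their own host gene, 29 at a start under another gene name, and 118 with no start within 1 kb, of which 6 still held a start inside the interval.

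The 115 intervals at another start of their host gene included genes known for alternative promoters. Runx2, the master regulator of osteoblasts, had an interval of height 24 in its coding exon (chr17:44871728-44873565), 79352 bp from the start used by the authors and 91 bp from another. Dnmt3a, the gene of a de novo DNA methyltransferase, had 1 of height 15 at 57186 bp and 469 bp (chr12:3891345-3893015), and Kdm2b, whose protein binds unmethylated CpG, 1 of height 29 at 88925 bp and 188 bp (chr5:123349835-123351022). Their median height was 20 (19 to 21), the same as that of the 118 without a start (20, 18 to 21). Their median CpG ratio was 0.793 (0.732 to 0.813), against 0.687 (0.653 to 0.755) in the 118.

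In the 29 intervals at a start under another gene name, the nearest start carried a symbol other than the host's; Mrg1 is an older name of Meis2. The interval of Mrg1 (height 17, chr2:115887823-115889204) lay 662 bp from a start of Meis2, that of LOC100042970 (25, chr17:34027258-34028104) 21 bp from a start of Kifc1, and that of Eif4e (22, chr3:138189505-138190513) 791 bp from that of the microRNA Mir1956. In the Hoxb cluster, the Hoxb3 interval (21, chr11:96203047-96203854) was 30 bp from the start of Gm11536. The class rests on symbols, so at Mrg1 it holds the host's own start.

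The summit lay in the first intron of a protein-coding transcript in 100 of 262 (38.2%, 95% interval 32.3 to 44.3%) and in a coding exon in 68 (25.95%, 20.8 to 31.7%). It lay in a 5' UTR in 30, in a later intron in 27 and in a 3' UTR in 9. The other 28 lay in no protein-coding transcript of GENCODE M1. A coding exon held the summit in 4.31% of all LHX6 intervals, 7.94% at island starts, 2.07% at islands outside genes and 1.92% inside genes without an island. Since the rule required a position inside a gene and off starts, the contrast with all but the last of these sets was set in part by the selection. Of the 118 intervals without a transcript start within 1 kb, 44 had their summit in a first intron, 41 in a coding exon (34.7%, 26.2 to 44.1%) and 17 in a later intron. Coding-exon summits without a start included those of Prrx1 (40), Zfp777 (43), Zfp771 (35), Msx1 (16, chr5:38212212-38213135), a homeobox gene of the craniofacial mesenchyme, and Fzd2 (20, chr11:102466946-102467915), a WNT receptor gene.

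The hexamer TGATTG, its variant TGATTA and the LIM homeodomain core TAATTA were searched on both strands within 100 bp of each summit. These hexamers were known from earlier results on these data, so their shares and their rise with height give no independent support for them. At least 1 was present at 62 of the 262 (23.7%, 95% interval 18.7 to 29.3%), against 50.1% of all LHX6 intervals. The shares were 25.8% at island starts, 25.9% at islands outside genes and 69.3% (66.8 to 71.7%) inside genes without an island. In windows of the same length 2 kb to either side, 17.4% held one beside the 262, and 20.0% beside the intervals without an island. TGATTG made most of this difference: it was in 17.9% of the summit windows of the 262 and in 6.87% of their flanks. TGATTA was in 7.25% and 7.06%, and TAATTA in 3.44% and 3.82%. GC content moved with these shares. Around the summit (300 bp) its median was 56.0% in the 62 with a hexamer and 66.0% in the 200 without, and its part in the result was not tested.

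The letter after TGATTG differed between islands and other intervals. Read in the direction of the hexamer, 35 of 56 TGATTG sites of the 262 were followed by G (62.5%, 95% interval 48.5 to 75.1%), so that the other strand read CCAATCA, which contains the CCAAT box of promoters. The share was 73.0% at island starts (445 of 610), 57.0% at islands outside genes and 25.5% (197 of 772) inside genes without an island. This split was chosen after the hexamer shares had been seen. Such a site was present in 30 of the 262 intervals (11.45%, 7.86 to 15.9%), against 16.02% at starts, 12.4% outside genes and 11.8% without an island. When such sites were not counted, a hexamer was left at 37 of the 262 (14.1%, 10.1 to 18.9%), against 11.9% at starts, 16.6% outside genes and 64.7% without an island.

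**Figure D2:**
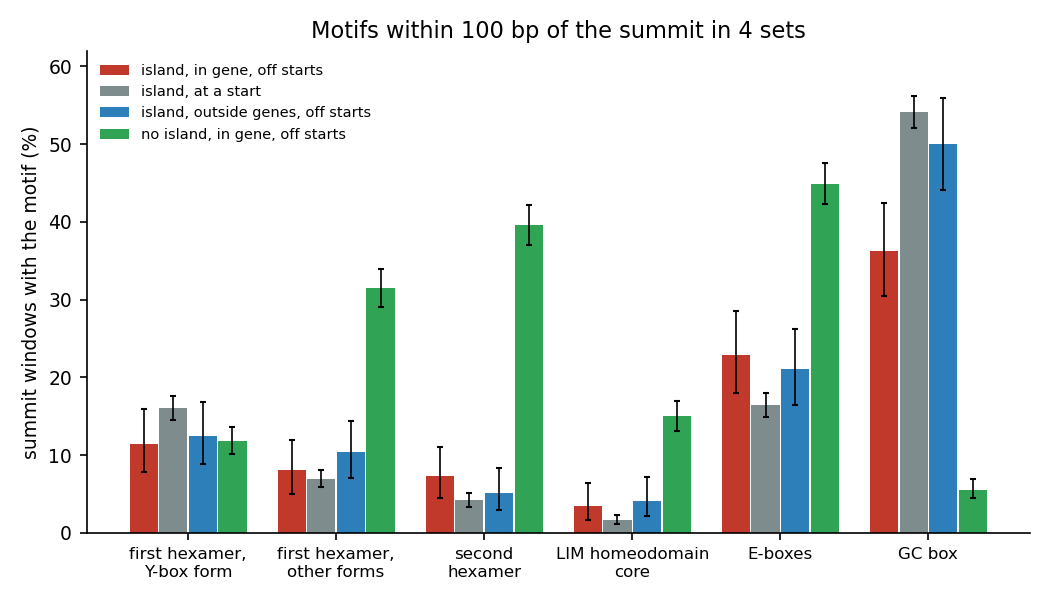
Share of summit windows (percent, 200 bp) with TGATTG followed by G (labelled Y-box form), TGATTG followed by another letter, TGATTA (second hexamer), TAATTA (LIM homeodomain core), an E-box, and GGGCGG (GC box), in the 4 sets of intervals with exact 95% intervals. TGATTG followed by G is at 11.45% in islands inside genes and 11.8% without an island, whereas the GC box is at 36.3% and 5.56%.

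Among the islands inside genes, taller intervals held a hexamer more often. In height groups chosen after the data were seen, the share among the 262 was 10.9% at heights up to 16 (n = 64), 15.4% at 17 to 20 (n = 78), 26.1% at 21 to 25 (n = 69) and 49.0% (95% interval 34.8 to 63.4%) at 26 or more (n = 51). Their flanks showed no such order, at 12.5, 23.1, 17.4 and 14.7%. At island starts the shares were 9.85, 17.6, 23.7 and 44.9%. At islands outside genes they were 22.03, 13.4, 21.3 and 49.3%, with no rise over the 3 lower groups. Inside genes without an island they were 48.9, 60.6, 67.8 and 81.7%. Among the 51 tallest of the 262, 15 (29.4%) held TGATTG followed by G and 11 (21.6%) held a hexamer of another form. Median height was 24 (21 to 26) with a hexamer and 19 (18 to 20) without. Median GC content around the summit was 63.8, 64.3, 63.3 and 65.0% over the 4 height groups.

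**Figure D3:**
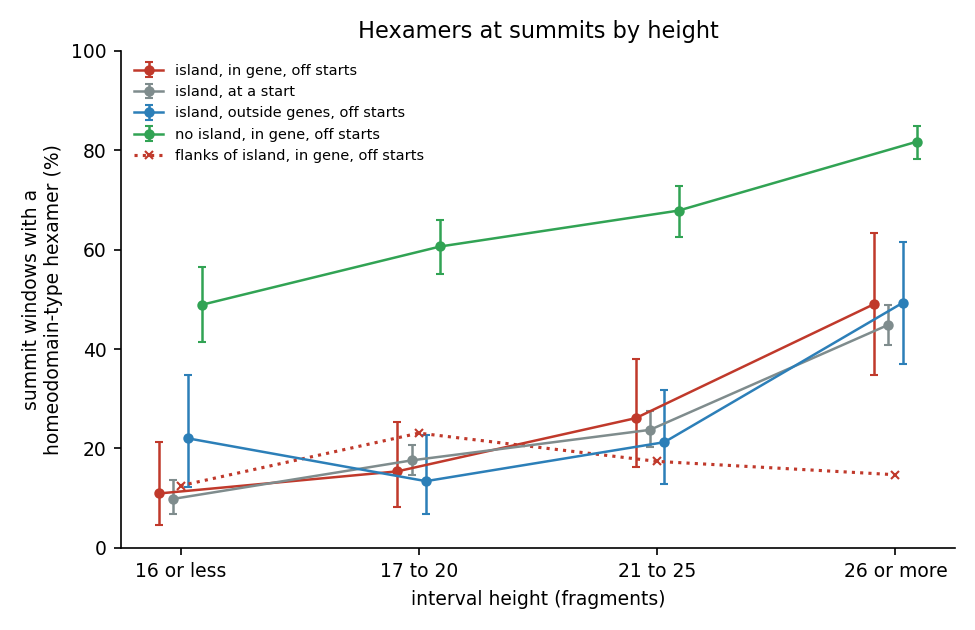
Share of summit windows (percent) with any of the 3 hexamers by interval height (fragments) in the 4 sets, with exact 95% intervals; the dotted line is the flanks of the islands inside genes. In islands inside genes the share is 10.9% in the lowest and 49.0% in the highest group.

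Where an interval without a transcript start lay within its gene, the hexamers were unevenly spread. They were present at 3 of 41 coding-exon summits (7.32%), 16 of 44 first-intron summits (36.4%) and 9 of 17 later-intron summits (52.9%). The later-intron group included Kcnq1, a potassium channel gene of an imprinted domain. Its interval of height 33 (chr7:150481871-150482968) lay 189353 bp from the authors' start and 147849 bp from the nearest GENCODE M1 start. An intron of Kcnq1 is known to hold an imprinting control island from which an antisense RNA starts; whether the interval is that island was not tested. The first-intron group included Grhl3, a gene of surface ectoderm (34, chr4:135125901-135126856), whose TGATTG lay 2 bp from the summit.

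E-boxes and the sequences typical of island promoters completed the motif search. CATCTG or CAGCTG was present at 60 of 262 summits (22.9%, 95% interval 17.95 to 28.5%), against 33.8% of all LHX6 intervals and 20.8% of the flanks. It was present in 16.4% at island starts, 21.03% outside genes and 44.9% inside genes without an island. Of the 262, 16 held both a hexamer and an E-box, and in 1 of these they shared letters. A further 5 motifs of island promoters were searched together: GGGCGG of SP factors, CCGGAAGT of ETS factors, TGACGTCA of CREB, the NRF1 motif (GCGC, 1 free letter, TGCGC) and the core of the CTCF motif (CCA, 2 free letters, AG, 2 free letters, GGC). At least 1 was present at 102 of the 262 (38.9%, 33.0 to 45.1%), against 29.2% of all LHX6 intervals and 11.3% of the flanks. The shares were 61.3% at island starts, 53.8% outside genes and 8.05% without an island. GGGCGG accounted for nearly all, at 36.3% of the 262, 54.1% at starts and 5.56% without an island. None of the 10 motifs was found at 100 of the 262 summits (38.2%).

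The 262 intervals had 255 host names in the authors' annotation, and after older names had been matched to current symbols they were 254 of the 5258 genes assigned to any LHX6 interval (4.83%). Transcription factors of the facial mesenchyme were frequent among them. Of the 79 genes on that list 60 had an LHX6 interval anywhere and 20 (33.3% of the 60) had 1 of the islands inside the gene. The list's genes had 144 intervals, of which 61 overlapped an island and 23 (15.97%) were islands inside the gene and off starts, against 262 of 4577 (5.72%) over all genes. The lists were chosen with earlier results of these data known, and a list gene had a median of 2 intervals, against 1 over all genes.

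The 23 intervals at these 20 genes had a median height of 18 (range 12 to 40), and 6 reached at least 22, the median of all LHX6 intervals. The highest after Prrx1 (40) were those of Sox11 (29, chr12:28022223-28024887), a SOX factor of undifferentiated mesenchyme and neural progenitors, and Tbx3. Tbx3, a T-box factor of limb and facial prominences, had 3 of the islands, with heights of 26 (chr5:120117849-120126462), 25 (chr5:120129900-120131226) and 14 (chr5:120132360-120133876). Twist1, a basic helix-loop-helix factor of the cranial mesenchyme, and Runx2 each had 1 of height 24. Intervals of the other 15 genes lay between 12 and 21. Among the homeobox genes they reached 18 at Dlx2 (chr2:71381727-71382879) and Lhx8, 17 at Alx4 (chr2:93483189-93484506), 16 at Msx1, Shox2 and Lhx6, and 15 and 13 at Pitx1. Among the other factors they reached 21 at Sox4, 19 at the nuclear receptor gene Nr2f1, 18 at the AP-2 gene Tfap2a and at Ebf3, and 13 at Mn1. The summit was in an exon of a protein-coding transcript in 14 of the 23 and within 1 kb of a GENCODE start in 9. A hexamer was present at 1 of the 23, against 62 of all 262.

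The gene of the immunoprecipitated factor was itself a host. Lhx6 had an island interval of height 16 in a coding exon (chr2:35946219-35947423), 14368 bp from the authors' start and 3334 bp from the nearest GENCODE start, and an interval of height 27 at its own start. Lhx8, which encodes a closely related LIM homeodomain factor of the same mesenchyme, had an island interval of height 18 in its first intron (chr3:153990358-153991534) and 1 of height 30 at its start. Lhx2 had 1 of height 17 (chr2:38210314-38211805). None of these 3 held a hexamer. Of the 22 LIM homeodomain factors and cofactors, 11 had any interval, and 3 of the 11 were hosts (27.3%, against 4.83% over all genes).

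Chromatin regulators had the next largest number of hosts, 10 of the 40 with an LHX6 interval, against 4.83% over all genes. Of their 64 intervals 10 (15.6%) were of this kind, against 5.72% over all genes. Of their 37 intervals that overlapped an island, these 10 made 27.0%, against 10.1% over all genes. Besides Kat6b (126) and Chd2 (50), these were Kdm2b (29), Kdm5a (26, chr6:120313524-120314760) and Kdm6b (23, chr11:69221758-69223690), which encode histone demethylases, and Nsd1 (21), Ezh1 (20), Dnmt3a (15), Auts2 (14) and Arid1a (14). A GENCODE start lay within 1 kb in 8 of the 10, and 4 held a hexamer.

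Lists of signalling genes had 1 to 4 hosts each. The WNT list had 4 hosts among 27 genes with an interval (14.8%, against 4.83% over all genes), namely Fzd2 (20), the transcription factors Lef1 (17, chr3:130813998-130816063) and Tcf7l2 (17, chr19:55817763-55818913), and the pathway inhibitor Axin2 (15, chr11:108783973-108785402). FGF and PDGF signalling had, among 11 genes with an interval (18.2%), the receptor genes Fgfr2 (18, chr7:137407944-137408838) and Pdgfra. Pdgfra had 2 of the islands, with heights of 23 (chr5:75548920-75550382) and 16 (chr5:75551586-75553113). Hedgehog signalling had 1 host among 9 genes (11.1%), the coreceptor gene Gas1 (24, chr13:60276177-60278170), and BMP and TGF-beta signalling 1 among 15 (6.67%), the inhibitory Smad7 (17, chr18:75528390-75529336). For guidance the host was Nrp2 (20, chr1:62753025-62754331) among 22 genes with an interval (4.55%), and for matrix Fbn2 (18, chr18:58367838-58369237) among 30 (3.33%). The cell cycle list had E2f3 (18, chr13:30076444-30077642) among 15 (6.67%), and the housekeeping list Tubb5 (29, chr17:35972267-35974608) among 14 (7.14%). The shares of the BMP and TGF-beta, guidance, matrix, cell cycle and housekeeping lists lay near the 4.83% over all genes. Those of the WNT, FGF and PDGF, and hedgehog lists were higher but rest on few hosts, and no test was run. Hoxb2 (15, chr11:96214649-96215271) and Hoxb3 (21) were the hosts among 16 Hox genes with an interval (12.5%). Of these intervals the Nrp2 interval alone held a hexamer.

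The imprinted list had 3 hosts among 27 genes with an interval (11.1%, against 4.83% over all genes). They were Kcnq1 (33), Grb10 (24, chr11:11925311-11926566), an adaptor of growth factor receptors, and Gnas (20, chr2:174154116-174155201), the gene of a stimulatory G protein subunit. The Grb10 and Gnas intervals lay 183 and 755 bp from another start of their gene, at 11214 and 44931 bp from the authors' start. The Grb10 interval had a CpG ratio of 1.12, against 0.518 at Kcnq1.

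Few genes of other tissues that the dissected arch can hold had an LHX6 interval of any kind. The lists held 24 epithelial, 14 head muscle, 18 endothelial, 17 blood and 22 cranial ganglia genes. Only 2 or 3 genes per list had an interval, too few to compare their share of hosts with other lists. The share of all annotated genes with an LHX6 interval was not computed. These counts therefore cannot be read as a difference in binding between tissues. The epithelial list had 2 hosts, Grhl3 among them, of 3 genes with an interval of any kind. The head muscle list had Pax7 (14, chr4:139376756-139377430) among 2. The endothelial and blood lists had 2 genes with an interval each and the list of cranial ganglia 3, and none of these was a host.

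**Figure D4:**
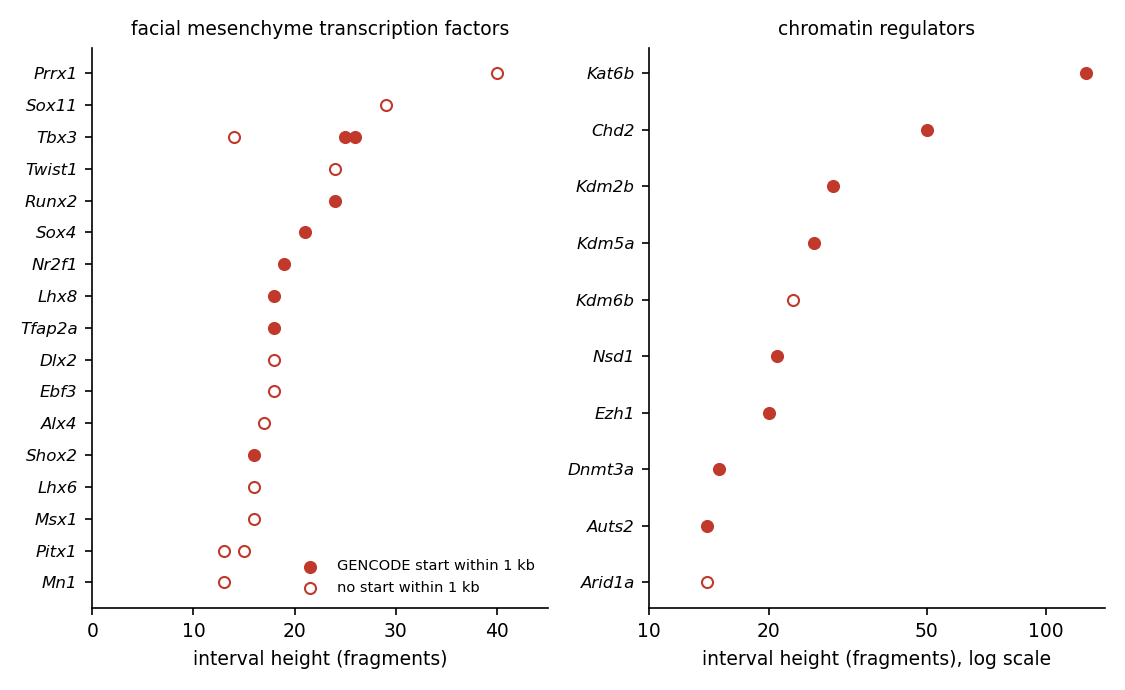
Height (fragments) of island intervals inside named facial mesenchyme factors (left) and chromatin regulators (right, log axis), filled where a GENCODE start lies within 1 kb of the summit. The facial mesenchyme factors shown lie between 13 and 40, with Prrx1 the highest, and Kat6b and Chd2 stand at 126 and 50.

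Hosts with several of these islands or with a bound start allowed intervals of 1 gene to be set side by side. Besides Tbx3 and Pdgfra, 9 hosts had 2 of the islands: Mllt10 (36 and 19), Sp3 (27 and 14), Rai1 (24 and 17), Rbm16, now Scaf8 (23 and 14), Pitx1 (15 and 13), A930004D18Rik (19 and 18), 5033425G24Rik (27 and 15), 4932422M17Rik (41 and 20) and LOC100040368 (32 and 22). Of the 255 hosts, 53 (20.8%) had an LHX6 interval within 1 kb of their own start, against 2662 of the 5258 genes assigned to any interval. This contrast was set in part by the selection. A host whose only interval is the island inside the gene cannot have one at its start, and the median over all genes was 1 interval. In 14 of the 53 the island inside the gene was the higher, in 1 both were equal and in 38 the start was the higher, with median heights of 18 inside the gene and 25 at the start. Arrdc3 (74 against 29) and Chd2 (50 against 23) were among the 14, and Axin2 (15 against 37), Sox4 (21 against 46) and Msx1 (16 against 26) among the 38.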

How the data were processed

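The deposited table gave, for 1 LHX6 ChIP library and 1 input library, intervals with 2 signal values computed by the authors from fragment density in bins of 32 bp, its maximum (height) and its mean, beside CpG islands and assigned genes. Reads were extended to 150 bp fragments per the labels' protocols, and BWA, MACS and mm9 are named per the submitters' processing notes. Versions, calling settings, read totals and any scaling of densities between libraries were not given in the sources used here, so depth is unknown. The described H3K27ac experiment was not analysed here.

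From these values, the intervals were selected by the authors' CpG island, distance and position entries. Distances were taken as measured from the summit: of 5403 distances for genes with 1 matching GENCODE name, 27.8% were equal to that from the summit and 75.2% within 200 bp, and of 199 host distances of the 262 intervals 132 (66.3%) were within 200 bp. Transcript starts, exons and sequence came from GENCODE M1 and NCBIM37; older symbols were matched through RefSeq names (231 of 255 hosts, 90.6%). Motif windows reached 100 bp to each side of the summit, with flanks centred 2 kb away. Python 3.11.15, pandas 2.3.3, scipy 1.17.1 and pysam 0.24.0 were used, and the motif and interval scripts were tested on simulated data. No replicate exists, so no test was run. Named genes were the hosts of the 12 highest intervals, up to 4 per list, imprinted hosts, hosts with 2 or more, and those nearest to and farthest from the distance limit; other genes were named after their values were seen. Some genes that the rule takes are not reported here. The members, the hexamers and the 18 lists were chosen with earlier results of these data known. Alternatives changed the distance limit, the entries required, the height, the annotation and the motif window.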

Additional observations from a re-analysis of the deposited data

How the results depend on the processing

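Over 10 results and 73 alternatives, 48 values stayed in place and 25 moved. With a limit of 2000 bp the number of intervals was 153, the share with the summit in an exon 49.7% (against 40.8%) and the facial mesenchyme hosts 13 (against 20); with 5000 bp these were 93, 48.4% and 6. Keeping heights of at least the median of all intervals left 100, with a median height of 26, length of 1177 bp, CpG ratio of 0.792, hexamers at 35.0% and 5 facial mesenchyme hosts. Leaving out intervals with a protein-coding GENCODE start left 148, with 20.3% at any start, a CpG ratio of 0.696 and 13 facial mesenchyme hosts. Requiring every entry to be in a gene gave 32.02% in an exon. A start was within 2 kb in 78.6%, and a protein-coding start within 1 kb in 43.5%. The mean density in place of the height had a median of 10.1 fragments, and 300 bp around the summit gave a CpG ratio of 0.805. Windows of 250 bp to each side held a hexamer in 32.8%, an E-box in 42.7% and an island motif in 73.3%. Not counting TGATTG followed by G, an alternative chosen after seeing the data, left a hexamer in 14.1%. No paired analysis was possible because each group had 1 library and the results come from no test. Low heights, unknown read totals and the absence of a second ChIP library limit all values.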

Other observations

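Hosts with a symbol starting with Zfp, Znf, Zbtb or Zscan supplied 10 of the 262 intervals (3.82%), among them Zfp777, Zfp503 and Zfp771. Zinc finger genes under other names were not counted, and the share over all LHX6 intervals was not computed. The interval of 2310043N10Rik, now Neat1, a long noncoding RNA of nuclear paraspeckles, had a height of 33 (chr19:5801887-5804138) and its nearest GENCODE start was that of Malat1 at 1009 bp. The island intervals inside genes lay on chromosome 11 in 27 cases and on chromosome 2 in 25, and on the X chromosome in 2. These chromosome counts were not set beside those of all LHX6 intervals. The genes of this paragraph were named after their values were seen.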
